A study of Mus musculus with 8 samples.

Results

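The transcripts of 9 transient receptor potential (TRP) channels that sense heat, cold and irritants were read in back-labelled sensory neurons of female and male mice. The genes were taken by symbol from the 22609 genes counted in each library: *Trpv1*, *Trpv2*, *Trpv4*, *Trpa1*, *Trpm2*, *Trpm3*, *Trpm4*, *Trpm7* and *Trpm8*. All 9 had reads in each of the 8 libraries, and 8 of them passed the filter on low counts, *Trpv4* being the exception. The study asked which genes differ between the sexes in dorsal root ganglion (DRG) neurons that innervate the hindpaw skin and the thigh muscle. All mice were naïve, young adult C57BL/6J, and the females were in the estrous phase. WGA-Alexa Fluor 488 (WGA-488), a fluorescent lectin that axons carry back to the cell body, was injected into both hindpaws and both thighs of males and females alike. Lumbar DRG of both sides were then dispersed, and cells positive for the dye were sorted with a viability stain, which gave 4 female and 4 male libraries from as many mice. Each library therefore mixed afferents of skin and muscle and neurons of different classes. In such bulk samples, fewer cells of a type and less RNA per cell cannot be told apart.

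TRP channels are cation channels of the cell membrane that open to temperature, chemicals or stretch and depolarise the nerve ending. TRPV1 opens to noxious heat, acid and capsaicin, TRPA1 to reactive irritants such as mustard oil, and TRPM8 to cold and menthol. In the DRG, TRPV1 and TRPA1 are best known from small peptidergic nociceptors, where both can sit in the same cell and the same complex, whereas TRPM8 marks a small class of cold-sensing neurons. TRPM3 is a further heat channel of nociceptors, opened by the neurosteroid pregnenolone sulfate, and TRPM2 responds to warmth and to products of oxidative stress.

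The libraries held 4.80 to 7.33 M gene reads (M stands for 1e6). Levels are given as counts per 1e6 gene reads (CPM), on which scale 3 reads were worth 0.409 to 0.625. All 10 sensory neuron markers were present, with a summed level of 18643 to 26431 CPM in females and 18657 to 21444 CPM in males. The 13 markers of satellite glia and Schwann cells summed to 11593 to 14941 CPM in females and 5437 to 11199 CPM in males, and those of fibroblasts to 143 to 195 CPM and 55.7 to 116 CPM, so that neither sum overlapped between the sexes. The study itself reported *Sox10*, *Bgn*, *Mxra8*, *Islr* and *Cd74* as higher in females in neurons labelled this way. *Sox10* is on the glial list, *Bgn*, *Mxra8* and *Islr* are on the fibroblast list, and *Cd74* is on the macrophage list used below. The separation of these sums is therefore in part set by the choice of genes. The 5 peptidergic neuron markers summed to 4567 to 6070 CPM in females and 5442 to 7756 CPM in males, with 3 of 4 females below every male. The 3 haemoglobin genes were at 0 reads throughout. The 6 non-peptidergic neuron markers summed to 2260, 2432, 1760 and 1681 CPM in females and 2579, 2220.2, 2173 and 2054 CPM in males, and the 6 itch neuron markers to 175 to 311 CPM and 218 to 361 CPM. Female replicate 4 had the highest glial, fibroblast and general neuronal sums, the lowest non-peptidergic sum (1681 CPM) and mural cell sum (40.4 CPM), and an itch neuron sum (193 CPM) below every male. Its peptidergic sum (6070 CPM) was the highest of the females. Male replicate 1 had the lowest glial sum and the highest peptidergic, non-peptidergic, itch neuron and mural cell (98.2 CPM) sums.

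The promoters of the channels with the highest and the lowest level per exon length among the tested genes, *Trpv1* and *Trpm8*, are shown to set the heat and the cold channel side by side. RefSeq gave a start site for 7 of the 9 genes, *Trpa1* and *Trpm4* not among them. The letters below are the 250 bases before the start on the gene's strand, 5′ to 3′, in the build GRCm38.p6, from chr11:73233899-73234148 (+) for *Trpv1* and from chr1:88306485-88306734 (+) for *Trpm8*. Capitals mark matches to the motifs searched.

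Trpv1: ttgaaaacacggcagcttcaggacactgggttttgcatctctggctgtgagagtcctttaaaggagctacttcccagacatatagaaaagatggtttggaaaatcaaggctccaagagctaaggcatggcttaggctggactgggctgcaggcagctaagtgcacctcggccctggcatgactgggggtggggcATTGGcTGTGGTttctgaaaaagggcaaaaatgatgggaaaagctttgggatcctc

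Trpm8: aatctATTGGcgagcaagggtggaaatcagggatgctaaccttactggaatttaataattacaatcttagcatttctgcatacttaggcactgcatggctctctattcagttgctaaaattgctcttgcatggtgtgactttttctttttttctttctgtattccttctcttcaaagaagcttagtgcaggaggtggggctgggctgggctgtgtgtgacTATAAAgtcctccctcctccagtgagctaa

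The search covered both strands of 300 bases, 250 before and 50 after each start, for the GC box GGGCGG, the TATA box TATAAA, the Runx core TGTGGT and the CCAAT box CCAAT. In *Trpv1* the Runx core began 50 bases and the CCAAT box, read on the other strand as ATTGG, 56 bases before the start. In *Trpm8* a TATA box lay 30 bases and a CCAAT box 245 bases before the start. Over 32851 mouse promoters of this length, 16.8% held the Runx core, 37.4% the CCAAT box, 13.6% the TATA box and 35.7% the GC box. The *Trpv1* window had a GC content of 51.7% and the *Trpm8* window of 44.3%, while that of *Trpv4*, with 3 GC boxes, reached 73.0%.

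*Trpv1* was the most abundant of the 9 channels and *Trpv4* the least. Levels of different genes were compared as reads per kilobase of exon per 1e6 gene reads (RPKM). *Trpv1* had 70.4 ± 21.1 RPKM (SD, n = 8), *Trpv2* 40.4 ± 3.96, *Trpa1* 28.1 ± 11.4 and *Trpm4* 7.95 ± 1.36 RPKM. *Trpm2* (2.51 ± 0.642 RPKM), *Trpm3* (2.43 ± 0.680) and *Trpm7* (2.28 ± 0.634) formed a lower group, and *Trpm8* (1.03 ± 0.457) and *Trpv4* (0.358 ± 0.176) came last. Within libraries, *Trpv1* lay above *Trpv2* in 7 of 8 (exact sign-flip permutation test, two-sided, p = 0.0156, adjusted over 8 neighbouring pairs p = 0.0208). The exception was female replicate 4. The steps from *Trpv2* to *Trpa1*, *Trpa1* to *Trpm4*, *Trpm4* to *Trpm2*, *Trpm7* to *Trpm8* and *Trpm8* to *Trpv4* had the same direction in 8 of 8 libraries (each exact permutation p = 0.0078, the smallest that 8 libraries can give, adjusted p = 0.0125). The mean RPKM of *Trpa1* was 3.54-fold that of *Trpm4*, which in turn was 3.17-fold that of *Trpm2*. *Trpm2*, *Trpm3* and *Trpm7* could not be ordered: each neighbour was the higher one in 4 of 8 libraries (exact permutation p = 0.586 for both pairs).

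**Figure D1:**
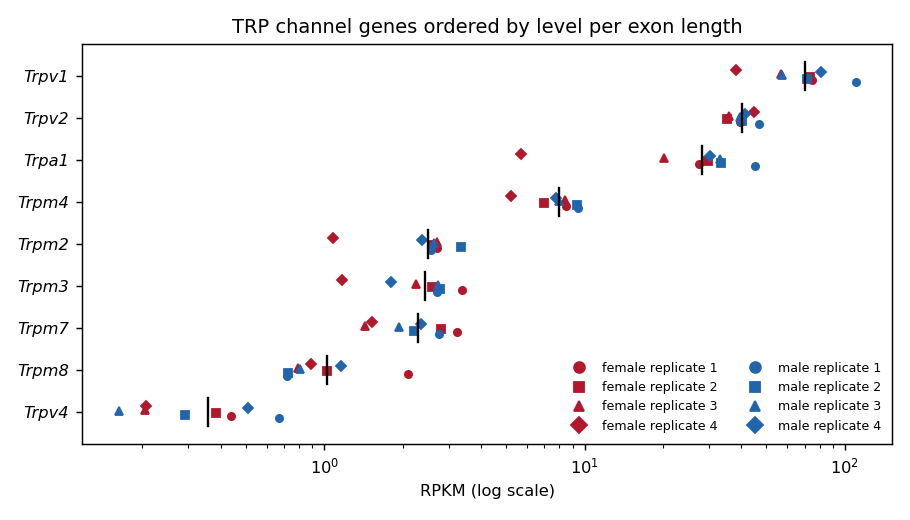
Level of each TRP channel gene per exon length (RPKM, log scale) in the 8 libraries, with a black line at the mean. *Trpv1* (mean 70.4 RPKM), *Trpv2* (40.4) and *Trpa1* (28.1) stand above the rest, and *Trpm2*, *Trpm3* and *Trpm7* lie on top of one another near 2.28 to 2.51 RPKM.

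*Trpv1*, the heat and capsaicin channel, lies on chromosome 11 from 73047794 to 73074744 (+ strand; positions are those of the mm9 assembly, NCBIM37, and all 9 genes are protein-coding). Its level was 276, 270.0, 209 and 141 CPM in female replicates 1 to 4 and 405, 263, 211 and 299 CPM in male replicates 1 to 4. Male replicate 1 was the highest library and female replicate 4 the lowest, and between these ends the sexes overlapped. The means were 224 ± 63.3 CPM in females and 294 ± 82.0 CPM in males (SD, n = 4 each). The log2 fold change of *Trpv1*, female over male, was -0.41 ± 0.24 (SE, 95% interval -0.95 to 0.12), and the edgeR adjusted p-value 0.749. The estimate was -0.24 without female replicate 4 and -0.21 without male replicate 1. It turned to 0.20 with the glial marker score in the model and was -0.03 with the peptidergic score.

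*Trpv2* encodes a channel related to TRPV1 that opens at very high temperatures in expression systems and is also found in larger, myelinated neurons (chromosome 11, 62387988 to 62414017, + strand). It was the steadiest of the 9, with 178, 158, 161 and 200.5 CPM in females and 210.2, 181, 177 and 185 CPM in males, and its highest library was 1.33-fold above its lowest. The sexes overlapped between 177 and 200.5 CPM, and the lowest libraries were female replicates 2 and 3. Its log2 fold change was -0.13 ± 0.11 (SE, 95% interval -0.38 to 0.12, edgeR adjusted p = 0.809). The estimate was -0.06 without male replicate 1, -0.20 without female replicate 4 (edgeR unadjusted p = 0.0351, adjusted p = 0.399), -0.0024 with the glial marker score in the model and 0.04 with the peptidergic score. The summed level of the 7 markers of myelinated neurons was 1184 to 2463 CPM in females and 624 to 1271 CPM in males.

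*Trpm3* (chromosome 19, 22213609 to 23064374, + strand) had 27.8, 21.3, 18.5 and 9.60 CPM in females and 22.4, 22.9, 22.5 and 14.8 CPM in males. In both sexes 1 library, replicate 4, lay well below the others, and the female libraries took in the whole range of the males. Its log2 fold change was -0.11 ± 0.28 (SE, edgeR adjusted p = 0.934), and it turned to 0.12 without female replicate 4. *Trpm2* (chromosome 10, 77370467 to 77433308, - strand) had 33.4, 32.1, 33.5 and 13.3 CPM in females and 31.8, 41.3, 32.7 and 29.3 CPM in males. Apart from female replicate 4, with less than any other library, the females fell inside the male range. Its log2 fold change was -0.28 ± 0.26 (SE, edgeR adjusted p = 0.818), and it was -0.05 without female replicate 4 and -0.60 with the peptidergic score in the model.

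*Trpa1*, the irritant channel, was lower in the 4 female libraries than in any male library (chromosome 1, 14862729 to 14908943, - strand). Females had 117, 127, 86.2 and 24.3 CPM, from 851, 731, 414 and 144 reads. Males had 193, 142, 141 and 129.9 CPM, from 1411, 957, 854 and 878 reads. Female replicate 4 was far below the other females, while female replicate 2 came within a few CPM of the lowest male. The mean was 88.6 ± 46.2 CPM in females and 151 ± 28.0 CPM in males (SD, n = 4 each), 1.71-fold higher in males. The log2 fold change was -0.79 ± 0.39 (SE, 95% interval -1.65 to 0.07), with an unadjusted edgeR p-value of 0.0677 and an adjusted one of 0.711, so that the difference did not pass. Without female replicate 4 it was -0.48, with an unadjusted edgeR p-value of 0.0129 and an adjusted one of 0.341. As said above, the glial and fibroblast lists hold genes that the study reported as higher in females. Their marker sums were higher in each female than in any male library, in the opposite direction to *Trpa1*. In 3 of 4 females so were the sums of the myelinated neuron markers (1184 to 2463 CPM in females, 624 to 1271 CPM in males) and of the 11 macrophage markers (9.90 to 30.6 CPM and 4.23 to 12.1 CPM), whose part in the difference was not tested. Once the glial marker score entered the model the log2 fold change of *Trpa1* was -0.31 (edgeR adjusted p = 1.00). With the peptidergic score in its place it was -0.69 (edgeR adjusted p = 0.920). The non-peptidergic sum was, like *Trpa1*, lowest in female replicate 4 and highest in male replicate 1, with 2 of 4 females below every male, and its part in the difference was not tested. The summed glial markers do not overlap between the sexes. The score in that fit is a mean of log2 levels, and its overlap between the sexes was not examined. Sex and glial RNA may therefore not be separable in that fit.

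**Figure D2:**
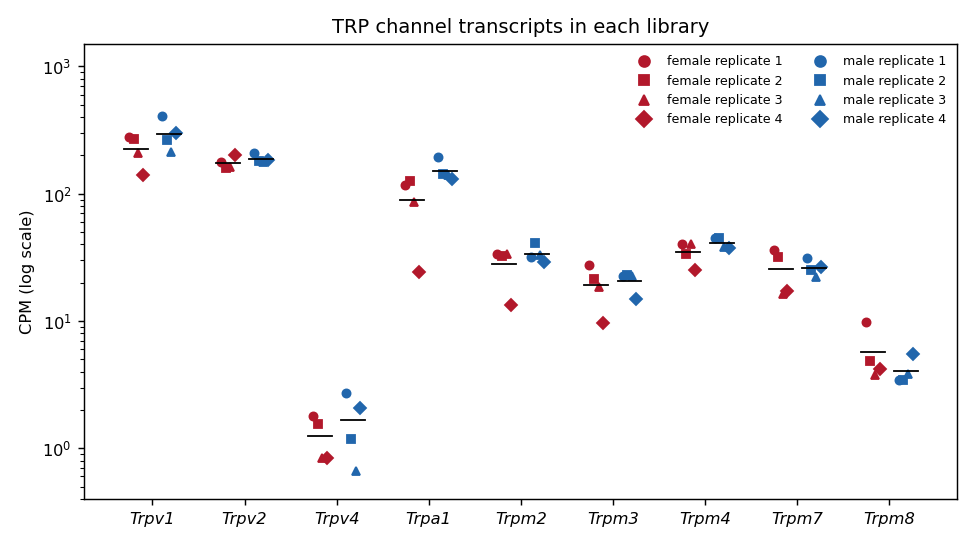
Level of each TRP channel gene (CPM, log scale) in the 4 female (red) and 4 male (blue) libraries, with the mean of each sex as a black line. *Trpa1* is the gene whose female points all lie below its male points, and female replicate 4 (red diamond) is the lowest library for *Trpv1*, *Trpa1*, *Trpm2*, *Trpm3* and *Trpm4*.

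*Trpm8*, the cold and menthol channel (chromosome 1, 90174236 to 90285868, + strand), was the one tested channel with a higher mean in females. It had 9.90, 4.86, 3.75 and 4.21 CPM in females, from 72, 28, 18 and 25 reads, and 3.41, 3.42, 3.80 and 5.47 CPM in males, from 25, 23, 23 and 37 reads. Female replicate 1 stood above all other libraries, and the other 3 females lay among the males. Its log2 fold change was 0.50 ± 0.33 (SE, 95% interval -0.24 to 1.24, edgeR adjusted p = 0.777), and it was 0.08 without female replicate 1 and 0.78 with the glial marker score in the model. *Trpm8* shares 388 exon bases with 4930453O03Rik on the other strand. The study's methods give no strand-marking step for these libraries, and 4930453O03Rik was not itself counted. Its reads over the shared bases thus cannot be told from those of *Trpm8* and may be counted as *Trpm8*.

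*Trpm4*, a channel opened by intracellular calcium that passes monovalent cations (chromosome 7, 52558002 to 52589150, - strand), had 40.4, 33.3, 40.0 and 24.9 CPM in females and 44.9, 44.6, 38.0 and 37.1 CPM in males. Its log2 fold change was -0.27 ± 0.17 (SE, edgeR adjusted p = 0.775), and the sexes overlapped through female replicates 1 and 3. It was -0.13 without female replicate 4 and -0.09 with the glial marker score in the model. *Trpm7*, a channel fused to a kinase that carries magnesium and zinc (chromosome 2, 126617301 to 126701966, - strand), had 36.4, 31.8, 16.3 and 17.2 CPM in females and 31.2, 25.0, 22.0 and 26.6 CPM in males. The females thus fell into a higher and a lower pair around the males, and the log2 fold change was -0.06 ± 0.26 (SE, edgeR adjusted p = 0.963), which turned to 0.10 without female replicate 4. *Trpv4*, a channel of osmotic swelling and warmth (chromosome 5, 115072161 to 115108430, - strand), had 4 to 13 reads in the female and 4 to 20 in the male libraries, or 0.833 to 1.79 CPM and 0.661 to 2.73 CPM, and the filter left it out of the test. With no filter its log2 fold change was -0.41 (edgeR unadjusted p = 0.410).

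**Figure D3:**
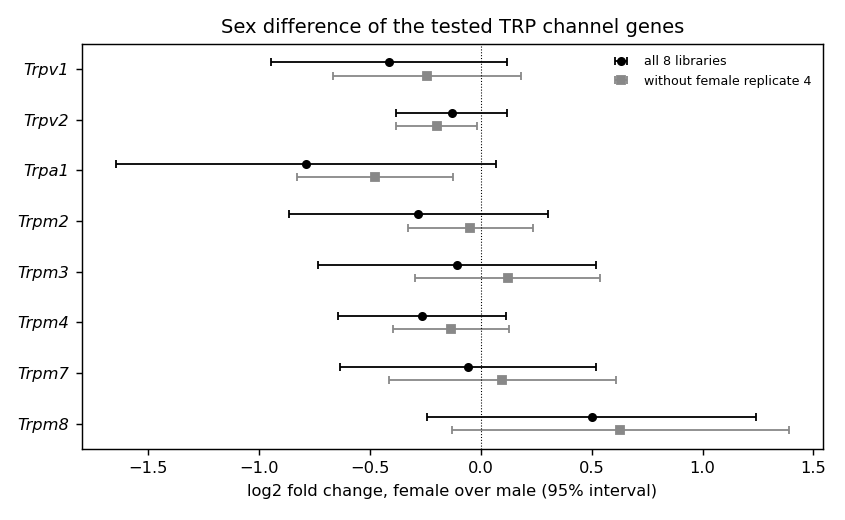
Log2 fold change, female over male, of the 8 tested TRP channel genes with its 95% interval from edgeR, over the 8 libraries (black circles) and without female replicate 4 (grey squares). Over the 8 libraries each interval includes 0, and without that library *Trpa1* moves from -0.79 to -0.48 with a narrower interval.

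Read as a group, none of the 8 tested channels passed an adjusted p-value of 0.05 between the sexes, where 0.0879% of the 12518 genes tested did. None had an unadjusted edgeR p-value under 0.05 either, where 7.11% of all genes had one. With DESeq2 and with limma-voom 1 channel, *Trpa1*, had such an unadjusted p-value (0.0395 and 0.0408). For 1 of the 8, *Trpa1*, the female and male libraries did not overlap, against 5.52% of all genes tested, or 2.52% with the females lower. Of the 8 fold changes, 7 were below 0 and 1 above, with a median of -0.20 on the log2 scale against 0.00337 over all genes. Over all genes 6174 of the 12518 tested were below 0. With the glial marker score in the model 4 of the 8 were below 0 and the median was 0.057, and with the peptidergic score 5 of the 8 with a median of -0.12. The median was -0.34 without female replicate 1, -0.14 without male replicate 1 (6 of 8 below 0) and -0.13 without female replicate 4 (6 of 9 below 0, with *Trpv4* tested). The glial and fibroblast marker sums given above did not overlap between the sexes, and their part in this direction was not tested further. The summed level of the 9 channels was 601 ± 128 CPM in females and 761 ± 127 CPM in males (SD, n = 4 each).

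Ratios between channels of the same library, with 0.5 CPM added to each level, were compared for *Trpa1*, *Trpm8*, *Trpm3* and *Trpv2*, each over *Trpv1*. *Trpa1* stood at 42.3%, 47.0%, 41.2% and 17.2% of the *Trpv1* CPM in females and at 47.5%, 54.0%, 66.8% and 43.5% in males. Of the females, 3 lay below every male, and female replicate 2 lay above 1 male. The mean share was 36.9% ± 13.4 in females and 53.0% ± 10.2 in males (SD, n = 4 each), and the log2 ratio differed by -0.59 (two-sided exact permutation p = 0.0571, adjusted over 4 ratios p = 0.229). Without female replicate 4 this difference was -0.27 (exact permutation p = 0.114). With 70 labelings the smallest possible p-value is 0.0286, which passes over 4 ratios if at least 3 reach it. *Trpm8* over *Trpv1* was 0.78 higher in females on the log2 scale (exact permutation p = 0.143, adjusted p = 0.286), *Trpm3* over *Trpv1* 0.24 higher (exact permutation p = 0.429) and *Trpv2* over *Trpv1* 0.29 higher (exact permutation p = 0.486). In female replicate 4 *Trpv2* reached 143% of *Trpv1*, while the other 7 libraries ranged from 51.9% to 83.7%, and without that library the difference of this ratio was 0.013. When each library was left out, the difference ranged from 0.013 to 0.44 for *Trpv2* over *Trpv1* (highest without female replicate 2) and from 0.068 (without male replicate 4) to 0.43 (without male replicate 3) for *Trpm3* over *Trpv1*.

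Among 25 genes known to act with or on these channels, *Tmem100* had the smallest p-value between the sexes. Its product is an adaptor that binds TRPA1 and TRPV1 in the membrane of nociceptors and loosens their contact, and the gene lies on chromosome 11 from 89891662 to 89897822 (+ strand). *Tmem100* had 94.3, 85.9, 76.2 and 97.4 CPM in females and 180.0, 114, 113 and 149 CPM in males. Each female lay below each male, as in 2.52% of all genes tested, and female replicate 4, the lowest library for *Trpa1*, was the highest female for *Tmem100*. The log2 fold change was -0.67 ± 0.17 (SE), with an unadjusted edgeR p-value of 0.00203 and an adjusted one of 0.450. It was -0.72 without female replicate 4 and -0.51 without male replicate 1. *Tmem100* is also known from endothelial cells, whose 6 markers together summed to 3.13 to 17.2 CPM in females and 3.47 to 6.80 CPM in males. With the glial or the peptidergic marker score in the model the log2 fold change of *Tmem100* was -0.27 or -0.24 (edgeR adjusted p = 1.00 and 0.920), and the part of these cell types in the difference was not tested further.

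**Figure D4:**
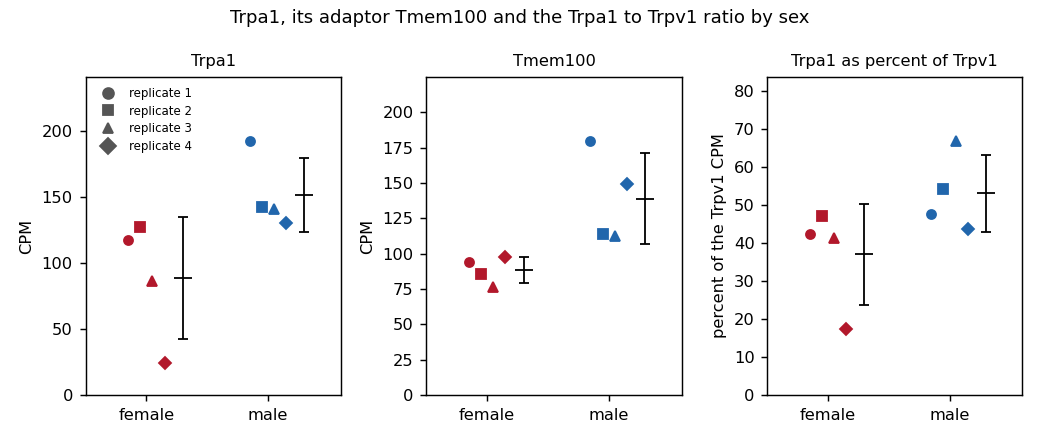
*Trpa1* and *Tmem100* (CPM) and *Trpa1* as a percentage of the *Trpv1* CPM in each library, with the mean and SD of each sex (n = 4). For both genes the 4 females lie below the 4 males, and for the ratio female replicate 2 (46.98%) lies above male replicate 4 (43.5%).

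Of these 25 genes, 23 were tested, 16 of them lower and 7 higher in females, with a median log2 fold change of -0.09. Over all genes tested 6174 of 12518 were lower in females, with a median of 0.00337. *Tmem100* was the 1 gene with an unadjusted edgeR p-value under 0.05. This 1 of 23 is no larger a share than the 7.11% of all genes, and none passed after adjustment. *Pirt*, whose product binds TRPV1 and TRPM8 and raises their activity, had 1825 CPM, or 435 RPKM, more than any of the 9 channels per exon length. Its log2 fold change was -0.21 ± 0.11 (SE, edgeR adjusted p = 0.731), and 3 of 4 females lay below every male. *Akap5*, the scaffold that brings kinases to TRPV1, and *F2rl1*, a protease receptor upstream of it, were too low to be tested.

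Other TRP genes gave 9 tested of 19 listed, 4 higher and 5 lower in females, none with an unadjusted edgeR p-value under 0.05. *Mcoln1*, a lysosomal channel, had the highest level of them with 166 CPM, or 47.0 RPKM, a mean above the 40.4 RPKM of *Trpv2*. *Trpc6*, a receptor-operated channel, had 37.5 CPM, or 13.4 RPKM, a mean above that of *Trpm4* in RPKM. Between the sexes it had a log2 fold change of -0.30 ± 0.22 (SE, edgeR adjusted p = 0.792). *Pkd2l2*, of the polycystin branch, had 18.4 CPM, and *Trpc4*, *Trpc2*, *Trpc1*, *Trpc7*, *Pkd2* and *Trpm6* lay between 1.63 and 5.91 CPM. *Trpv5*, a channel of calcium uptake in epithelia, and *Mcoln3* had 0 reads in all libraries.

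The channels did not vary evenly over the libraries. Female replicate 4 was the lowest of the 8 for 5 of the 9 genes, and male replicate 1 was the highest for 5 of 9. How often these libraries were the extremes over all genes was not computed, so the counts describe the channels only. Against the mean of the 8 libraries on the log2(CPM + 0.5) scale, female replicate 4 lay at -2.10 for *Trpa1*, -1.13 for *Trpm2*, -0.96 for *Trpm3* and -0.82 for *Trpv1*, but at 0.15 for *Trpv2*. Male replicate 1 lay at 0.86 for *Trpa1* and 0.70 for *Trpv1*. Female replicate 1 was the highest library for *Trpm3*, *Trpm7* and *Trpm8*, at 1.04 for *Trpm8*. The ratio of the highest to the lowest library was 7.94 for *Trpa1*, against 1.33 for *Trpv2*. The marker sums of female replicate 4 and male replicate 1 given above stand beside these values, and their part in them was not tested.

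**Figure D5:**
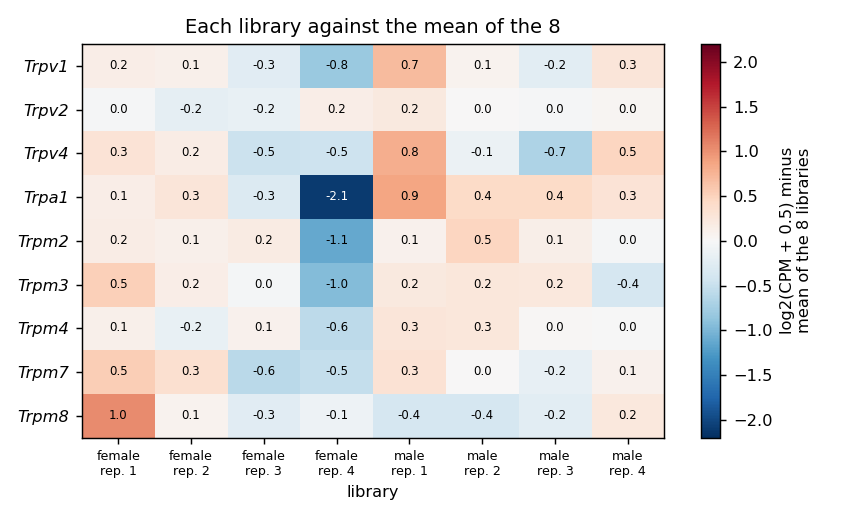
Deviation of each library from the mean of the 8 libraries on the log2(CPM + 0.5) scale, with red above and blue below the mean. Female replicate 4 holds the deepest blue cell, -2.10 for *Trpa1*, and female replicate 1 the deepest red one, 1.04 for *Trpm8*.

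Genes whose levels followed each channel closely were sought among 9074 genes over the 8 libraries, by Pearson's r on the log2 scale. These are the highest of many values over few libraries and are given as a description. For *Trpa1* they were *Hif1a* (r = 0.997), *Vwa5a* (0.995) and *Ivns1abp* (0.995), and for *Trpv1* they included *Dnajc13* (0.982) and *Syt1* (0.978), which is also one of the sensory neuron markers. *Trpv2* went among others with *Bzw2* (0.990) and *Pkig* (0.971). *Trpm7* went with *Scn9a* (0.976), the sodium channel Nav1.7 of nociceptors, *Rabgap1l* (0.969) and *Rbms3* (0.963). For *Trpm2* the genes were *Nf2* (0.992), *Ints7* (0.989) and *Scrn3* (0.988), for *Trpm3* *Kif26b* (0.985), *Entpd7* (0.976) and *Mtor* (0.974), and for *Trpm4* *Ttll5* (0.981), *Scyl2* (0.981) and *Ttc13* (0.977). *Trpm8*, with the fewest reads among the tested channels, reached 0.899 with *Wbp11*, 0.895 with *Atf7* and 0.893 with *Zc3h7b*. Without female replicate 4 the r of *Trpa1* with *Hif1a* was 0.974 and that of *Trpv1* with *Dnajc13* 0.961, while that of *Trpm2* with *Scrn3* was 0.858.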

How the data were processed

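SMART-seq2 libraries were made from RNA of the sorted neurons (oligo-dT priming and PCR amplification) and were sequenced as single reads. Per the study's methods and the labels, the authors aligned reads with TopHat2 to mm9 and counted them per gene with HTSeq, and the deposited values are raw read counts with no normalization; versions and strand option are not given in the sources used here. Reads carried no molecular identifiers, so floors cover counting error only. The 5 summary lines of each table were left out; reads outside features were 57.8% to 60.5% of unique reads, and gene symbols matched the GENCODE M1 annotation of NCBIM37 for 21627 of 22609 genes. No strand-marking step is given for these libraries, so reads of genes that overlap on opposite strands cannot be told apart.

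Groups and replicate numbers came from the labels. Sexes were compared in R 4.3.3 with edgeR 4.0.16 (quasi-likelihood test on counts, TMM factors, default expression filter, sex alone, Benjamini-Hochberg adjustment over 12518 genes), which was first tested on simulated data. There it recovered 59.5% of 200 genes changed 2-fold and 97% of 200 changed 4-fold, with 7 and 9 false calls. Changes below 2-fold can therefore be missed. RPKM used merged exon length. Ratios were taken on log2 values with 0.5 CPM added, and levels of neighbours on log2 values with 0.01 RPKM added. Marker scores used as covariates are the mean log2(CPM + 1) of a list. Alternatives used DESeq2 1.42.0, limma-voom (limma 3.58.1), other scalings and filters, thinning, covariates, a length correction, the replicate block and leaving out each library. Genes were named by rule: the 9 channels, other TRP genes over 1 CPM, partner genes with an unadjusted p-value under 0.05, and the 3 genes most correlated with each tested channel among tested genes over 10 CPM. *Pirt*, *Akap5*, *F2rl1*, *Trpv5* and *Mcoln3* fall outside this rule and were named after their values were seen. Some genes that the rule names are not reported here. The channels and lists were chosen with earlier results of these data known. Whole ganglia, hindpaw tissue and Percoll-enriched neurons were not analysed here.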

Additional observations from a re-analysis of the deposited data

Results flagged for a closer look

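Each sex was screened for a library far from the other 3, for the 9 channels, the 4 ratios, the depth and the summed level of the channels, and 3 of 30 such groups showed one, where chance gives about 1.5. In female replicate 4 *Trpm2* had a log2(CPM + 0.5) of 3.79, against 5.03 to 5.09 in the other females, a gap of 0.952 of the whole range. In male replicate 4 *Trpm3* had 3.93 on the same scale, against 4.52 to 4.55 in the other males (0.949 of the range). The log2 ratio of *Trpa1* to *Trpv1* was -2.51 in female replicate 4, against -1.27 to -1.09 in the other females (0.869 of the range). A gap above 0.829 of the range counted as far.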

How the results depend on the processing

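The fold changes of *Trpa1*, *Trpm2* and *Trpm4* stayed below 0 and that of *Trpm8* above 0 under all 19 alternatives, *Trpm2* between -0.60 (peptidergic covariate) and -0.05, *Trpm4* between -0.35 and -0.09, *Trpm8* between 0.08 and 0.78 (glial covariate), and *Trpa1* between -1.02 (limma-voom) and -0.31 (glial covariate) with edgeR, DESeq2 or limma adjusted p-values of 0.341 to 1.00, and no channel passed after adjustment under any. With the glial marker covariate *Trpv1* turned to 0.20, *Trpm3* to 0.12 and *Trpm7* to 0.40, and with the peptidergic covariate *Trpv2* turned to 0.038 and *Trpm7* to 0.29. Leaving out each library moved *Trpm3* between -0.34 and 0.12 and *Trpm7* between -0.28 and 0.10. The cause was not tested.

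The number of all genes with an adjusted p-value under 0.05 was 11, and it was 48 with DESeq2, 5 with either covariate, 6 with the replicate block, and 7 (without male replicate 4) to 84 (without female replicate 1) when each library was left out. The number of channels with an unadjusted p-value under 0.05 was 0, and it was 1 with DESeq2, limma-voom, no filter, the length correction or the replicate block, *Trpa1* in each, and 0 to 2 when each library was left out. It was 1 without female replicate 2, *Trpa1* (edgeR unadjusted p = 0.0385), and 2 without female replicate 4, *Trpa1* and *Trpv2* (edgeR unadjusted p = 0.0129 and 0.0351). *Trpv4* passed the filter in 7 of the alternatives, whose counts then cover 9 channels, with fold changes of -0.66 to -0.25. Over all genes 890 of 12518 had such a p-value, 921 of 12734 without female replicate 2 and 1453 of 12724 without female replicate 4, and 872 with the block, 895 with limma-voom, 929 with DESeq2 and 1207 with the length correction (12518 each), and 1115 of 17254 with no filter.

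Same-numbered libraries did not deviate together (r over genes 0.0939, -0.109, 0.144 and 0.00476 for numbers 1 to 4), so the block rests on a number alone. With it *Trpa1* was at -0.98 (edgeR adjusted p = 0.681). Of the 8 neighbouring pairs in the order of levels 6 passed, and 0 in females alone or in males alone, where 4 libraries cannot give an exact permutation p-value below 0.125. With the longest transcript as length *Trpm7* came before *Trpm3*. No difference of a ratio turned its sign, but without female replicate 4 that of *Trpa1* over *Trpv1* went from -0.59 to -0.27 and that of *Trpv2* over *Trpv1* from 0.29 to 0.013, and leaving out male replicate 4, 1 or 3 moved that of *Trpm3* over *Trpv1* from 0.24 to 0.068, 0.12 or 0.43. *Trpv2* over *Trpv1* was 0.18 without male replicate 1 and 0.44 without female replicate 2. *Trpm8* over *Trpv1* was 0.78, and 0.82 from raw counts (exact permutation p = 0.171). Depth limits *Trpv4* (4 to 20 reads) and *Trpm8* (18 to 72 reads) most.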
